A study of Mus musculus with 2 samples.

Results

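The Fmod Acan Col11a1 skeletogenic connective cells of the mouse rib callus at 4 days post injury (dpi) are described here from single-cell RNA sequencing (scRNAseq). They number 934 of the 21259 barcodes sequenced, 551 in the control library and 383 in the Smo cKO library. The cells were selected on measured values. A barcode needed at least 1000 unique molecular identifiers (UMIs, counts of single captured transcripts), under 10% of them from mitochondrial genes, and at least 1% from Col1a1, Col1a2 and Col3a1 together. It had to hold 0 UMIs of Ptprc, Pecam1, Myog and Rgs5, which mark hematopoietic, endothelial, muscle and mural cells, and fewer than 5 UMIs of the mitotic genes Birc5, Cdk1, Ube2c and Ccna2. The 7209 barcodes left, 4272 in control and 2937 in Smo cKO library, are called gated connective cells. Each was scored for 3 sets of 5 genes, as the mean z-score of the natural log of 1 plus UMIs per 10000. A cell was kept where the set Fmod, Acan, Col11a1, Tnn and Comp scored highest and above 0.3, and where it held fewer than 2 UMIs of Tnmd, a marker of mature tendon cells. The other sets, with the same limits on score and Tnmd, were Sfrp4, Eln, Col14a1, Cilp and Sfrp1, which gave 1967 cells called Sfrp4 Eln Col14a1 fibroblasts, and Tnc, Inhba, Aldh1a3, Timp1 and Loxl2, which gave 1794 cells called Tnc Inhba activated callus fibroblasts.

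The study asked how Hedgehog (Hh) signaling in skeletal progenitors directs the repair of the rib. Control animals were Sox9:CreER;R26:tdT;Smof/+ and Smo cKO animals were Sox9:CreER;R26:tdT;Smof/f, aged 8 to 12 weeks, so that the controls also carried the Cre driver, the tdTomato reporter and 1 floxed allele of Smo, the transducer of the Hh signal. All received 3 tamoxifen injections on days −7 to −5 and a 3 mm rib resection, and 3 calluses of each genotype were pooled into 1 library. The Cre is driven by Sox9, so Smo could be removed only from cells that expressed Sox9 at the time of tamoxifen and from their descendants, and other cells of the callus kept it. The control library held 105367110 UMIs in 10747 barcodes and the Smo cKO library 112700220 UMIs in 10512.

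A rib callus is built by periosteal and stromal progenitors that first lay down a collagenous matrix and then form cartilage and bone. Sox9 directs the cartilage program, in which aggrecan and the type II, IX and XI collagens are assembled, while Runx2 and Sp7 direct the osteoblast program, marked by bone sialoprotein and osteocalcin. Scx marks tendon and ligament progenitors.

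With 1 library for each genotype there was no replicate, and no test was made. Levels are UMIs of a gene summed over the cells of a class and divided by all UMIs of those cells, as counts per 1000000 (CPM). Intervals are exact 95% intervals that cover counting error only and not the spread between animals. A gene was called where it reached 50 CPM on at least 1 side and differed at least 2-fold. A gene that reached 50 CPM only on the side where it was high was bound to differ, so counts within a list describe the list and support no direction.

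The selected cells were deeply sequenced, with a median of 11289 UMIs and 2900 genes in control and 10877 UMIs and 2838 genes in Smo cKO library. The median mitochondrial share was 2.35% and 2.34%. Between the libraries 613 barcodes were shared, and in 512 of these pairs the smaller barcode held under 20% of the UMIs of the larger. Of the selected cells, 7 in control and 6 in Smo cKO library carried such a barcode. None of these 13 was under 20% of its partner, and 1 was the smaller of its pair. Without shared barcodes the selected cells were 12.9% and 13.1% of the gated connective cells, and 21 genes were called higher and 7 lower in the Smo cKO cells.

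The 5 genes of the rule describe the cells and are not evidence for them. Fmod (fibromodulin, a proteoglycan that regulates collagen fibril assembly, chromosome 1, 134037254 to 134048277 on GRCm38) was at 601 CPM in control and 471 CPM in Smo cKO cells. Acan (aggrecan, the large proteoglycan of cartilage, chromosome 7, 79053483 to 79115099) was at 329 and 227 CPM. Col11a1 (a chain of type XI collagen that nucleates thin fibrils, chromosome 3, 114030540 to 114220718) was at 396 and 499 CPM. These levels stood well above those of both neighboring classes, where the highest of the 3 genes was Col11a1 at 82.5 CPM. Tnn (tenascin W, a matrix glycoprotein of periosteum and early bone, chromosome 1, 160085029 to 160153580) was at 735 and 560 CPM and was the gene least restricted to the selected cells, at 290 and 219 CPM in the Tnc Inhba cells. Comp (cartilage oligomeric matrix protein, chromosome 8, 70373558 to 70382066) was the lowest, at 106 and 66.8 CPM. In the Smo cKO library 5 cells held 61.5% of all Comp UMIs. Without the 5 highest cells of each library Comp was 1.73 log2 units lower in Smo cKO, in place of 0.67. Those cells were dropped on Comp UMIs, so the changed value supports no direction.

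Most selected cells carried several of these genes. All 5 were detected in 128 control cells and 46 Smo cKO cells, 4 in 246 and 157, and 3 in 122 and 122. With every cell thinned to 1000 UMIs, Tnn was detected in 45.9% of control and 40.7% of Smo cKO cells, Fmod in 39.6% and 31.6%, and Acan in 26.1% and 13.6% (93.5% and 90.3%, 83.8% and 81.5%, and 73.3% and 65.8% before thinning). The background from free RNA was read in Ptprc+ cells under 1% collagen UMIs, with medians of 3355 and 3836.5 UMIs, where thinned Tnn was found in 2.11% and 1.31% and Acan in 0.574% and 0.309%.

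The score formed a continuous range and not a separate group. In the score band from 0.3 to 0.35, just inside the threshold, 13 control cells held Fmod at 156 CPM and Acan at 28.9 CPM, and 13 Smo cKO cells held them at 183 and 76.3 CPM. Just outside, from 0.25 to 0.3, 23 control cells held Fmod at 82.4 and Acan at 49.5 CPM, and 26 Smo cKO cells at 73.4 and 34.8 CPM. The median score of the selected cells was 1.22 in control and 0.89 in Smo cKO library. On the 2 other sets their medians were −0.55 and −0.37 for the Sfrp4 set and 0.07 and 0.08 for the Tnc set.

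**Figure D1:**
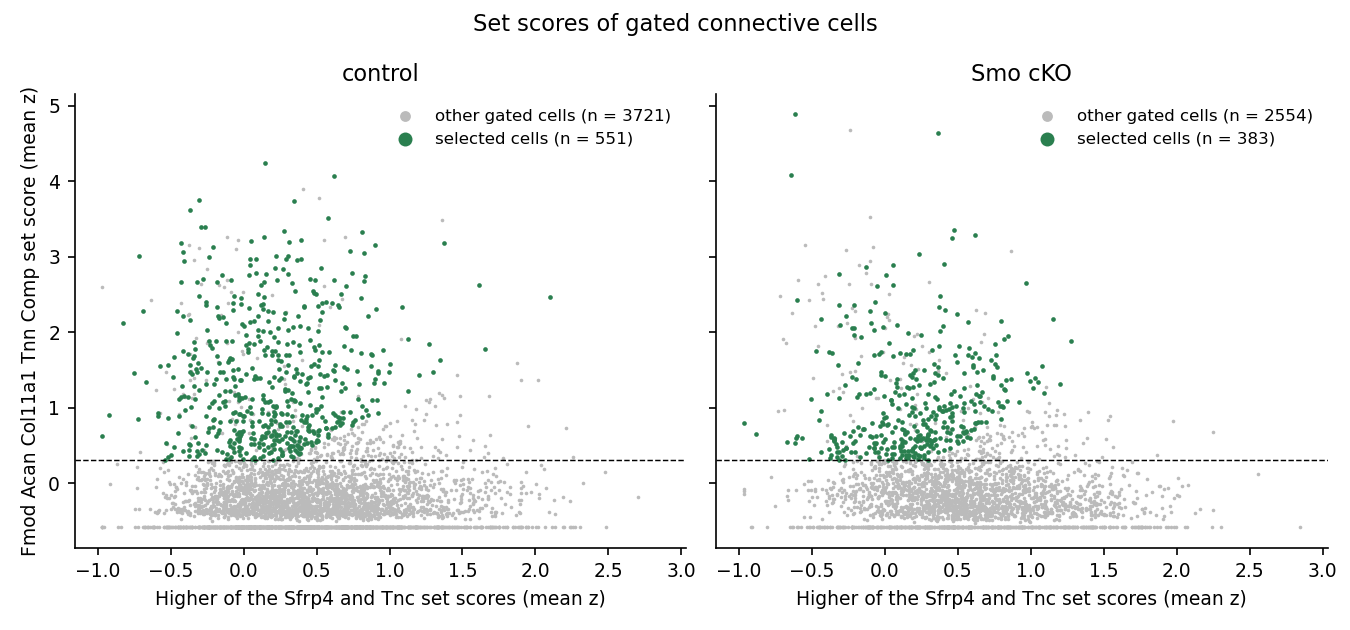
Score of the Fmod, Acan, Col11a1, Tnn and Comp set (vertical, mean z-score) against the higher of the Sfrp4 and Tnc set scores (horizontal, mean z-score) for every gated connective cell of the control (left) and Smo cKO (right) library. Green points are the 551 and 383 selected cells, gray points the other gated cells, and the dashed line the 0.3 threshold; the gray points high above it include 110 control and 109 Smo cKO cells left out for 2 or more Tnmd UMIs.

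The name of the cells was checked against genes outside the rule. Across all other gated connective cells, 35 genes were at least 2-fold higher in the selected cells of both libraries (1.27% of 2756 genes) and 48 were at least 2-fold lower (1.74%). These counts include genes of the rule, and since the cells were chosen on expression the contrast is a description only. The median gene was 0.13 log2 units higher in the selected cells of the control and 0.04 higher in those of the Smo cKO library, and relative to that median 32 genes were higher and 54 lower.

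Several regulators of cartilage and tendon stood higher. Scx (scleraxis, the tendon and ligament progenitor factor, chromosome 15, 76457452 to 76459458) was at 310 CPM in control and 318 CPM in Smo cKO cells, against 53.3 and 94.5 CPM in the other gated cells, which was 5.82-fold and 3.36-fold higher. It was broadly carried, with 419 of 551 and 272 of 383 cells holding a UMI. In cells thinned to 1000 UMIs it was found in 23.4% and 25.6%, against 0.844% and 2.69% of Sfrp4 Eln Col14a1 fibroblasts and 0.766% and 1.39% of Ptprc+ cells. Sox9 was at 76.5 and 65.7 CPM, against 35.3 and 38.1 CPM, so it was 2.17-fold higher in the control and 1.72-fold higher in the Smo cKO library. Thinned Sox9 was found in 6.53% and 5.74% of the selected cells and in 0.383% and 0.541% of Ptprc+ cells.

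Of 12 cartilage regulators listed, 4 reached 50 CPM in the comparison with the other gated cells. Of these, 2 were called higher, beside 1.27% of all genes. Both reached the floor only in the selected cells, so this count supports no direction for the list. Pth1r, the receptor for parathyroid hormone related protein, was at 92.0 and 80.6 CPM against 20.7 and 25.5 CPM. Wwp2, a ubiquitin ligase that works with Sox9, was at 57.4 and 42.0 CPM against 17.5 and 14.9 CPM. Sox9 and Trps1, a transcription factor of growth plate chondrocytes, stood above the other cells in both libraries without reaching 2-fold in each. The partners of Sox9 were scarce, with Sox5 at 13.8 and 6.48 CPM and Sox6 at 6.25 and 1.79 CPM.

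The matrix of mature cartilage was nearly absent. Of 22 cartilage matrix genes listed (21 in the feature list), 2 reached 50 CPM, Prg4 and Col2a1. Matn1, Cytl1 and Col10a1, the last a marker of hypertrophic chondrocytes, had 0 UMIs in the selected cells of either library. Hapln1, the link protein of aggrecan, was at 16.1 and 19.4 CPM, and Col9a1 at 8.93 and 5.81 CPM. Col2a1, the main cartilage collagen, was at 10.6 and 102 CPM, but 8 control cells and 3 Smo cKO cells held all of its UMIs, and 1 Smo cKO cell held 270 of 455. Col11a2 was also carried by few cells, 15 and 13. Acan, by contrast, was detected in 404 and 252 cells.

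Some osteoblast genes stood higher, and their UMIs were unevenly spread over the cells. Of 14 osteoblast lineage genes, 6 reached 50 CPM, and 4 of these (Ibsp, Mmp13, Bglap and Bglap2) were called higher than in the other gated cells and 0 lower, beside 1.27% of all genes called higher. All 4 reached the floor only in the selected cells, so this count supports no direction for the list. Sp7 (osterix, the osteoblast commitment factor), which stayed under 50 CPM, was at 25.1 and 25.2 CPM against 1.45 and 1.998 CPM, with 111 control and 64 Smo cKO cells holding a UMI. Ibsp (bone sialoprotein, chromosome 5, 104299171 to 104311469) was at 301 and 590 CPM against 3.65 and 9.73 CPM, and was held by 89 and 75 cells, of which the 5 highest carried 55.6% and 64.4% of its UMIs. Bglap, which encodes osteocalcin, was held by 12 and 11 cells. Runx2 was held more widely, at 76.2 and 66.3 CPM against 56.6 and 59.6 CPM, under 2-fold. Mmp13, the collagenase of hypertrophic cartilage and osteoblasts, was at 212 and 245 CPM against 25.6 and 31.7 CPM and was held by 163 and 108 cells.

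UMIs of bone and cartilage genes were detected in some of the selected cells. A UMI of Ibsp, Sp7, Bglap, Bglap2 or Alpl was found in 33.6% of control and 33.2% of Smo cKO cells, a UMI of Col2a1, Col9a1, Col11a2, Hapln1, Matn3 or Chad in 24.5% and 24.02%, and neither in 55.7% and 55.4%. Cells with neither were shallower, with medians of 10966 and 9921 UMIs against 11974 and 12775 in cells with a bone gene, so a cell with 0 UMIs may still express these genes. Thinned to 1000 UMIs, Ibsp was found in 7.62% and 9.92% of the selected cells and in 0.0957% and 0.155% of Ptprc+ cells. Cells with 10 or more UMIs of the bone genes numbered 34 in control and 45 in Smo cKO library, and those with 10 or more of the cartilage genes 5 and 7. Leaving out the 10 cells of each library with most bone and Col2a1 UMIs left 31 genes higher and 45 lower than in the other gated cells. Col2a1 in Smo cKO and Bglap2 in the control were then below the other cells, since cells rich in such UMIs were the ones dropped.

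**Figure D2:**
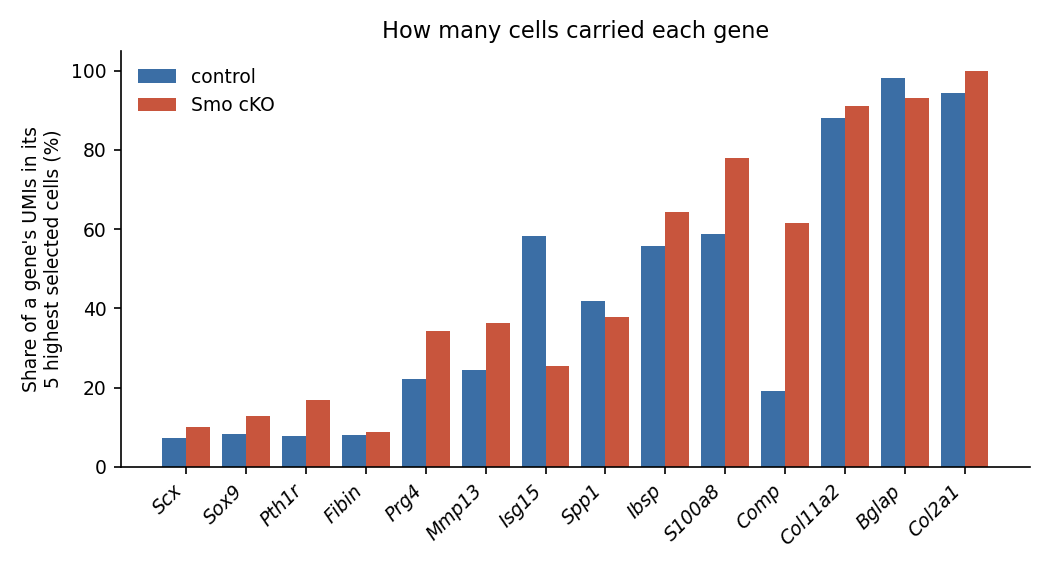
Share of a gene's UMIs (percent) held by its 5 highest cells among the selected cells of the control (blue, n = 551) and Smo cKO (red, n = 383) library. Scx, Sox9, Pth1r and Fibin were spread over many cells, at 16.9% or less, whereas Col11a2, Bglap and Col2a1 lay at 88.1% or more in 5 cells.

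Among the 10 genes that stood highest over the other gated cells outside the rule were Ibsp, Col2a1, Mmp13, Bglap2 and Scx, given above except Bglap2, and 5 further genes. Anxa8, an annexin of membranes, was at 98.7 CPM in control and 40.4 CPM in Smo cKO cells, against 14.1 and 8.52 CPM in the other cells. Tspan2, a tetraspanin, was at 62.2 and 40.2 CPM against 10.1 and 9.43 CPM. Bmp2, a bone morphogenetic protein needed to start fracture repair, was at 77.2 and 67.9 CPM against 14.0 and 14.3 CPM. Edil3, an integrin ligand of the matrix, was at 64.3 and 56.3 CPM against 12.6 and 13.9 CPM. Itga11, the collagen-binding integrin subunit of fibroblasts and osteogenic cells, was at 61.5 and 59.9 CPM against 15.9 and 18.8 CPM. All 5 were carried by many cells, from 83 for Anxa8 in Smo cKO to 248 for Itga11 in the control. Of 34 BMP and TGF-beta genes, 18 reached 50 CPM. Bmp2 and Id1, a direct BMP target, were called higher and Fst, an inhibitor of activin, lower. Bmp2 reached the floor only in the selected cells. Over all genes 1.27% were called higher and 1.74% lower. Id1 was at 98.4 and 119.7 CPM against 24.9 and 56.5 CPM. Single members of the Wnt and IGF lists were called higher too, Dkk3, a secreted protein of the Dickkopf family, at 192 and 179 CPM against 64.9 and 76.2 CPM, and Igfbp3, which binds IGF, at 52.4 and 70.8 CPM against 26.2 and 31.6 CPM.

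Acute phase and inflammatory genes were among the lowest in the selected cells. Of 14 acute phase and inflammatory genes, 11 reached 50 CPM, and 7 of these were called lower (Il6, C3, Cxcl5, Saa3, Steap4, Ccl7 and Serpina3n) and 0 higher, beside 1.74% of all genes called lower. Il6, C3, Steap4 and Serpina3n reached the floor only in the other cells. Il6, the fever and acute phase cytokine, was at 24.3 and 30.6 CPM against 139 and 173 CPM in the other gated cells. C3, the central complement component, was at 48.5 and 7.82 CPM against 211 and 58.9 CPM. Ptx3 (a soluble pattern recognition protein outside the list) was at 61.8 and 31.7 CPM against 300.5 and 167 CPM, and Cxcl5, a neutrophil chemokine, at 85.0 and 45.1 CPM against 358 and 333 CPM. The other 6 of the 10 lowest were Saa3, Steap4, Cxcl3, Col15a1, Plpp3 and the unnamed transcript Gm12840, between 3.25-fold and 5.22-fold lower. Of 5 adventitial fibroblast genes at 50 CPM, 3 were called lower, Dpt, Cd34 and Clec3b, beside 1.74% of all genes. Only 1 of the 5 reached 50 CPM in the selected cells, so this count supports no direction for the list. Ly6a (Sca-1) was the single call among 11 periosteal and stromal genes, also lower. Cxcl12, a chemokine that attracts leukocytes and progenitors, was at 94.5 and 74.2 CPM against 232 and 116 CPM.

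Most matrix genes shared by connective cells were not called, which held for most genes. Postn (periostin, a periosteal matrix protein) was at 3487 and 3286 CPM against 2038 and 2290 CPM, and Aspn (asporin, a small leucine-rich proteoglycan) at 1778 and 2222 CPM against 844 and 1491 CPM. Lum, Ogn, Dcn and Bgn of the same family were under 2-fold in both libraries, and 0 of 6 measured proteoglycans outside the rule were called. Among 12 further collagens 0 were higher and Col15a1 was lower, and among 17 collagen processing genes 0 were called. Over all genes 1.27% were called higher and 1.74% lower, so few calls in lists of this size are near that share. Of 18 matricellular genes, Edil3 and Ecm1 were called higher and 0 lower, beside 1.27% and 1.74% of all genes. Edil3 reached the floor only in the selected cells. Of 5 interferon-stimulated, 11 immediate early and heat shock, 3 cell cycle and 12 hypoxia and glycolysis genes at 50 CPM, 0 were called.

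**Figure D3:**
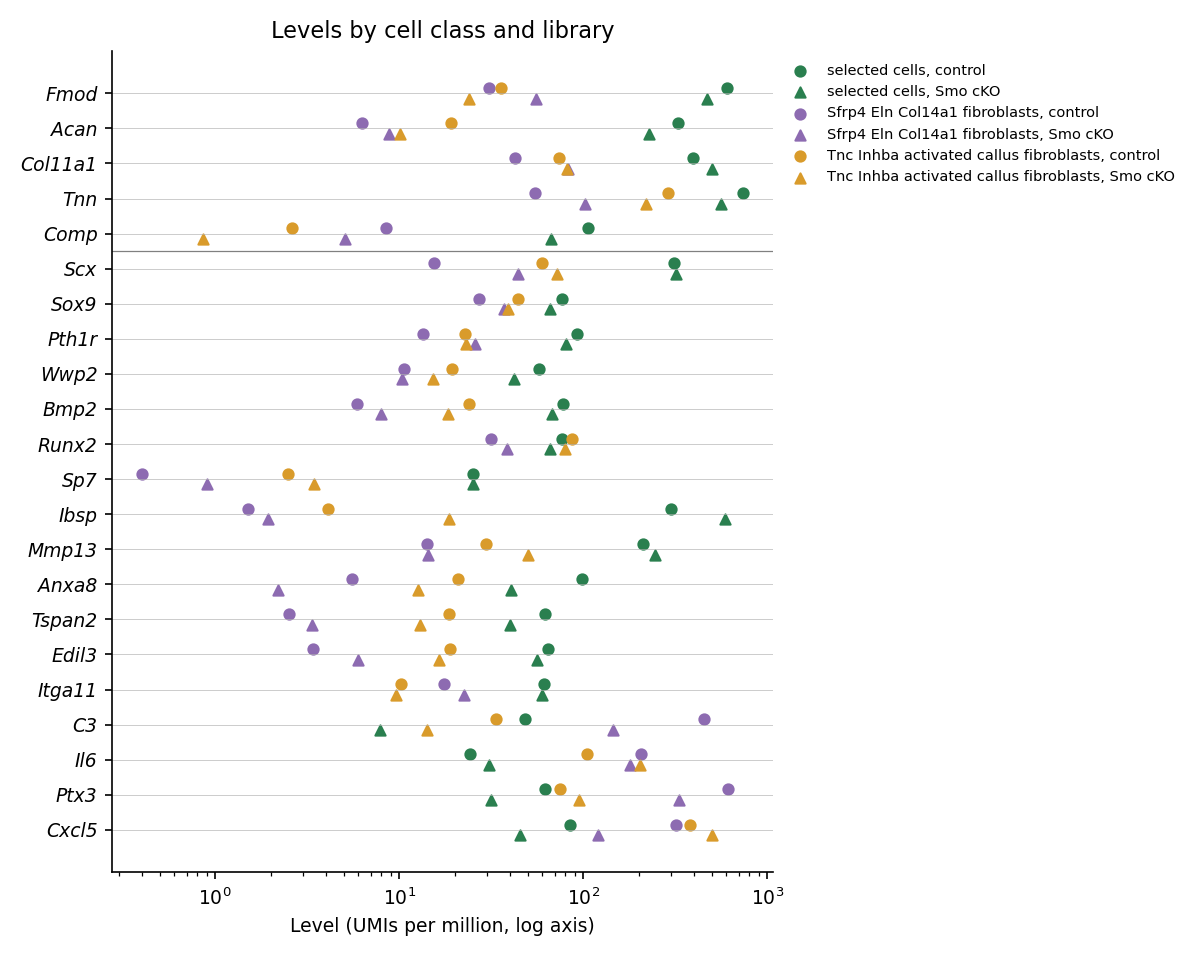
Levels of 22 genes (CPM, log axis) in the selected cells (green), Sfrp4 Eln Col14a1 fibroblasts (purple) and Tnc Inhba activated callus fibroblasts (orange) of the control (circles) and Smo cKO (triangles) library, 1 point for each class and library. The 5 genes above the line chose the cells; below it Scx, Sp7, Ibsp and Mmp13 stood highest in the selected cells, and Il6, Ptx3 and Cxcl5 lowest.

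Against the 2 named neighbors the differences ran in unequal directions. Against the Sfrp4 Eln Col14a1 fibroblasts 99 genes were at least 2-fold higher in both libraries (3.45% of 2870 genes) and 172 lower (5.99%). Against the Tnc Inhba activated callus fibroblasts 88 were higher (3.18% of 2769 genes) and 35 lower (1.26%). Scx was higher than in either class, which had 15.4 and 44.0 CPM (Sfrp4 set) and 59.7 and 71.9 CPM (Tnc set). Of the acute phase and inflammatory genes, 9 of 11 were called lower than in the Sfrp4 set and 2 of 8 lower than in the Tnc set. Of 11 immediate early and heat shock genes, 1 was called lower than in the Sfrp4 set and 5 higher than in the Tnc set. Lum, a proteoglycan of tendon and skin, was at 872 and 955 CPM, near the 864 and 1059 CPM of the Sfrp4 set and above the 172 and 255 CPM of the Tnc set. Runx2 was near the Tnc set, at 87.2 and 79.3 CPM, and above the Sfrp4 set, at 31.6 and 38.5 CPM. Id3, a BMP target, was at 601 and 842 CPM, against 177 and 590 CPM in the Sfrp4 set and 190 and 342 CPM in the Tnc set. The selected cells were deeper than the Sfrp4 Eln Col14a1 fibroblasts, which had medians of 7631 and 8865.5 UMIs, and shallower than the Tnc Inhba cells, at 13943 and 14490.

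The promoters of the genes that led the selected cells are shown because Mmp13, Ibsp and Anxa8 stood together above the other gated cells and because Runx2, Fos and Jun, factors that can bind such sequences, were all detected in them. Of the 15 genes (5 of the rule and the 10 above), 9 were matched to a RefSeq promoter in the table used, on GRCm38.p6. Its starts can differ from those of the gene coordinates given above. The Ibsp bases printed below lie inside the Ibsp interval. The 250 bases before the start were searched on both strands for short motifs. The core bound by RUNX factors was written TGTGGT. For the AP-1 factors Fos and Jun the letters searched were TGACTCA. The E-box, which reads the same on both strands, was taken as CAGCTG. As a core for SOX factors such as Sox9 the search used AACAAT. The TATA box was looked for only on the strand of the gene, as TATAAA. The first 100 bases before the start are printed 5′ to 3′ with matches in capitals, for Mmp13 at chr9:7272414-7272513, Ibsp at chr5:104299187-104299286 and Anxa8 at chr14:34085879-34085978, all on the plus strand.
Mmp13: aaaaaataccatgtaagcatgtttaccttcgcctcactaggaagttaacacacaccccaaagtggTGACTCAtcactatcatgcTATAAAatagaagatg
Ibsp: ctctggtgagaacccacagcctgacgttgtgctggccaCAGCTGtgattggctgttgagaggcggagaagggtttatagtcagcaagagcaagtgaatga
Anxa8: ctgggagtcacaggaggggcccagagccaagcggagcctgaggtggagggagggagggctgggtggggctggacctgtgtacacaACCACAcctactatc
Mmp13 held AP-1 letters 35 bases and TATA letters 16 bases before the start, Ibsp E-box letters 62 bases before it, and Anxa8 RUNX letters 15 bases before it. RUNX letters were found in 3 of the 9 promoters (Anxa8, Mmp13 and Tspan2) and in 14.2% of all 27025, AP-1 letters in 1 (Mmp13) and 4.43%, E-box letters in 2 (Acan and Ibsp) and 12.8%, TATA letters in 1 (Mmp13) and 8.12%, and SOX letters in 0 and 9.65%. A match of letters describes the sequence and does not show that a factor binds it.

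The selected cells were divided by the gene of the rule with the highest z-score in each cell. Acan led 226 control cells (41.0%) and 113 Smo cKO cells (29.5%), Comp 122 (22.1%) and 37 (9.66%), Fmod 82 (14.9%) and 88 (23.0%), Col11a1 78 (14.2%) and 102 (26.6%), and Tnn 43 (7.80%) and 43 (11.2%). The z-scores that set these shares come from the genes of the rule, so the shares are a description. Cells led by different genes also differed in genes outside the rule. Bmp2 was at 109 and 98.4 CPM in Acan-led cells and at 9.50 and 21.9 CPM in Comp-led cells. Igf1, the growth factor, ran the other way, at 114 and 303 CPM in Acan-led and 569 and 769 CPM in Comp-led cells, as did Mfap4, an elastic fiber protein, at 90.7 and 317 CPM and 420 and 758 CPM. Runx2 was at 85.8 and 58.0 CPM in Acan-led and 38.7 and 52.0 CPM in Comp-led cells. Scx was the most even of these genes, between 208 and 367 CPM in the 10 groups. Bglap was highest in Col11a1-led cells of both libraries, at 317 and 598 CPM, and Col2a1 in Comp-led cells, at 49.0 and 1245 CPM. All 714 Bglap UMIs of the Col11a1-led Smo cKO cells lay in 1 cell, so that level describes 1 cell. Comp-led Smo cKO cells also held Bglap at 588 CPM, and few cells carried either gene.

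The first comparison between genotypes was the number of cells. The selected cells made up 12.9% (interval 11.9% to 13.9%) of control and 13.0% (interval 11.8% to 14.3%) of Smo cKO gated connective cells, a difference of 0.14 percentage points (interval −1.42 to 1.74) that was within counting error. Of all barcodes they were 5.13% and 3.64%, and gated connective cells as a whole were fewer in the Smo cKO library. The share depended on the limit set on detected genes. The study's own filter on cells had a lower and an upper limit of this kind. More than 2000 genes were detected in 86.8% of control and 76.8% of Smo cKO selected cells. Keeping cells with 200 to 2000 detected genes, and scoring and selecting anew among them, gave shares of 8.43% (97 of 1150) and 16.53% (103 of 623), a difference of 8.10 percentage points.

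Within the selected cells most genes were near equal between genotypes. The median log2 ratio of Smo cKO over control was 0.02 over 2578 genes at 50 CPM, and 20 genes exceeded 2-fold upward (0.776%) and 7 exceeded it downward (0.272%). The genes of the rule moved by less than 2-fold, with log2 ratios of −0.53 for Acan, −0.39 for Tnn, −0.35 for Fmod, 0.33 for Col11a1 and −0.67 for Comp. Comp was at −1.73 without its 5 highest cells in each library, and at −1.84 without the 10 cells with most bone and Col2a1 UMIs. The first drop was made on Comp UMIs. The second was made partly on Col2a1 UMIs, and all 455 of these in Smo cKO lay in Comp-led cells. The 2 values therefore support no direction for Comp. Scx did not differ beyond counting error (log2 ratio 0.03, interval −0.06 to 0.13), nor did Sp7 (0.01, interval −0.35 to 0.36), Bmp2 (−0.19, interval −0.39 to 0.02) or Runx2 (−0.20, interval −0.41 to 0.01). Sox9 was slightly lower, at −0.22 (interval −0.43 to −0.01).

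**Figure D4:**
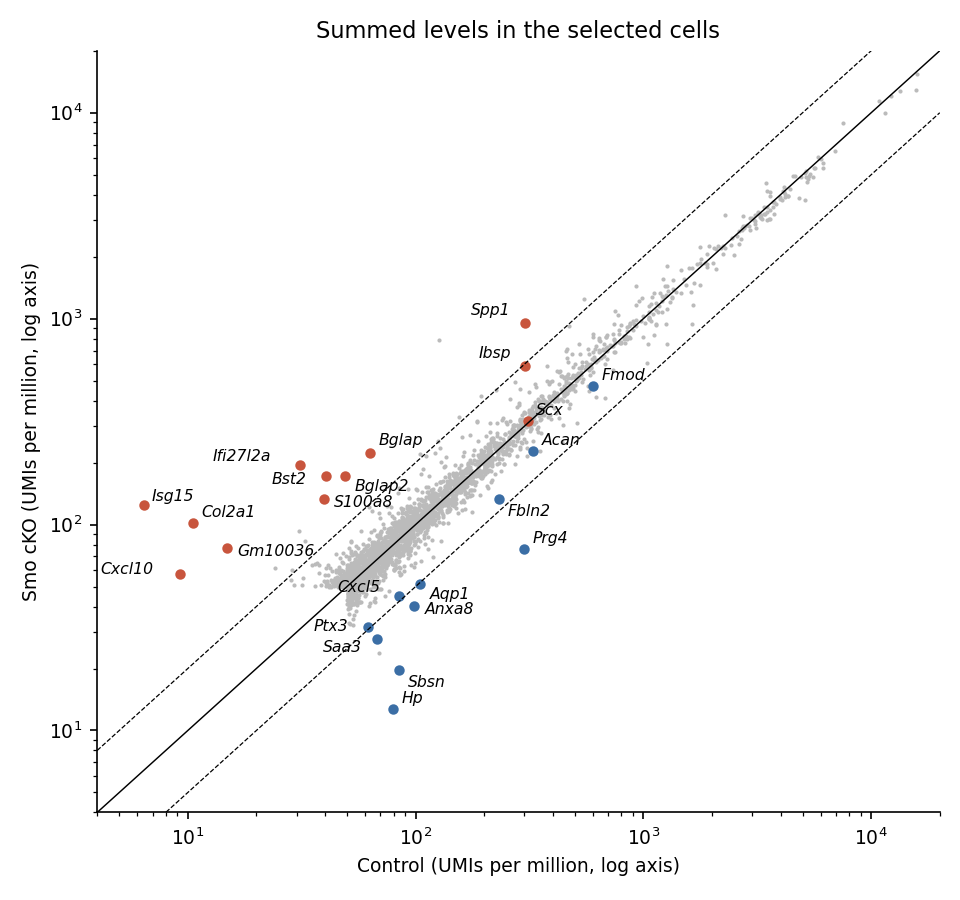
Level of each gene at 50 CPM or more on either side in the selected cells of the control (horizontal) and Smo cKO (vertical) library, both in CPM on log axes. The solid line is equality, the dashed lines are 2-fold, named genes are red where higher and blue where lower in Smo cKO, and Prg4 lies at 298 CPM in control and 75.7 CPM in Smo cKO.

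Among the genes called lower were Prg4, Hp, Sbsn, Saa3, Anxa8 and Aqp1. Of 4 cartilage regulators at 50 CPM 0 were called, beside 0.776% of all genes called higher and 0.272% lower. Prg4 (lubricin, the joint surface lubricant, chromosome 1, 150449412 to 150466165) fell from 298 CPM in control to 75.7 CPM in Smo cKO cells, 3.94-fold lower (log2 ratio −1.98, interval −2.15 to −1.81). It was held by 242 of 551 control and 86 of 383 Smo cKO cells. Thinned to 1000 UMIs, 15.97% of control and 6.27% of Smo cKO cells held it, against 1.15% and 0.541% of Ptprc+ cells. Anxa8 was 2.44-fold lower. Aqp1, a water channel, was 2.02-fold lower, at 104 and 51.4 CPM, and Sbsn, a secreted protein first known from skin, 4.32-fold lower, at 85.0 and 19.7 CPM. Hp, the hemoglobin-binding acute phase protein haptoglobin, was 6.26-fold lower, at 79.8 and 12.7 CPM. Saa3, an acute phase serum amyloid, was at 68.0 and 27.7 CPM, and 5 cells held 83.1% of its Smo cKO UMIs. At a score threshold of 0.5 its log2 ratio was −3.63 in place of −1.30. Hp and Saa3 are also made by blood-derived cells, and thinned Hp was found in 2.58% and 5.10% of Ptprc+ cells, against 5.26% and 1.57% of the selected cells. Aqp1 was under 2-fold at a score threshold of 0.5 (log2 ratio −0.92), from the mean of per-cell CPM (−0.92), in cells thinned to 1000 UMIs (−0.93), with 200 to 2000 detected genes (−0.54) and without the 10 bone-rich cells (−0.98). Anxa8 was under 2-fold in thinned cells (−0.94) and with 200 to 2000 detected genes (−0.59). C3 lay just under 50 CPM and was lower too, at 48.5 and 7.82 CPM.

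These falls were partly shared by the neighboring classes. Prg4 had a log2 ratio of −1.07 in the Sfrp4 Eln Col14a1 fibroblasts and −0.80 in the Tnc Inhba cells, Anxa8 −1.32 and −0.71, and Hp −1.55 and −2.06. Aqp1 had 1.09 and −0.15, and was scarce in the Sfrp4 Eln Col14a1 fibroblasts, at 12.2 CPM or less. The interval of Prg4 in the selected cells did not overlap those of the other classes, −1.27 to −0.88 and −0.88 to −0.71. Whether these differences between classes exceed the spread between animals was not tested.

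Several interferon-stimulated genes were higher in the Smo cKO cells. Of 24 listed, 4 reached 50 CPM, and 3 of these were called higher and 0 lower, beside 0.776% of all genes called higher. All 3 reached the floor only in Smo cKO, so this count supports no direction for the list. Summed over all 24 with no floor, UMIs were at 1419 CPM in control and 2594 CPM in Smo cKO cells, with Ifitm3 the most abundant. Isg15, a ubiquitin-like antiviral modifier, rose from 6.398 to 125 CPM, 19.5-fold on 43 control UMIs (log2 ratio 4.29, and 2.59 with 200 to 2000 detected genes), and was held by 22 of 551 control and 123 of 383 Smo cKO cells. Ifi27l2a rose from 30.9 to 195 CPM and Bst2 (tetherin, which holds virus particles at the membrane) from 40.3 to 173 CPM. Cxcl10, an interferon-induced chemokine outside the list, was at 9.23 and 57.4 CPM, and its log2 ratio fell under 2-fold, to 0.80, with 200 to 2000 detected genes. The Sfrp4 Eln Col14a1 fibroblasts had log2 ratios of 2.31 for Isg15 and 1.71 for Bst2, and the Tnc Inhba cells 4.27 and 3.28, so the rise was measured in all 3 classes. It was also present in Ptprc+ cells, where thinned Isg15 was found in 4.21% of control and 15.1% of Smo cKO cells. The part of free RNA in the selected cells was not tested.

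**Figure D5:**
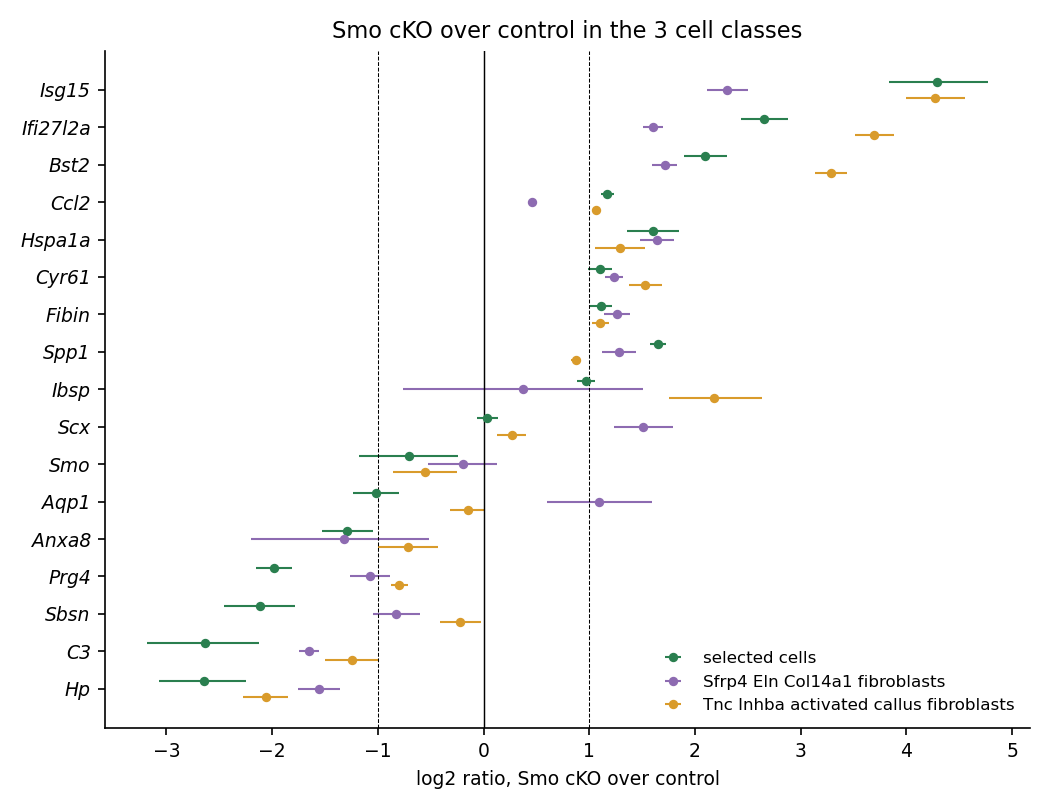
Log2 ratio of Smo cKO over control for 17 genes in the selected cells (green), Sfrp4 Eln Col14a1 fibroblasts (purple) and Tnc Inhba activated callus fibroblasts (orange), with exact 95% intervals that cover counting error only. The dashed lines are 2-fold; Isg15, Fibin and Hspa1a lay beyond the upper line in all 3 classes, whereas Prg4 was at −1.98, −1.07 and −0.80.

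Other genes called higher fell into small groups. Fibin, a secreted protein listed with the tendon genes, rose from 194 to 420 CPM and was widely carried, by 337 of 551 and 329 of 383 cells. Its log2 ratio was 1.11, and it was 1.26 and 1.10 in the other classes. Thbs4, a tendon thrombospondin, was at 163 and 225 CPM and was not called. Cyr61, a matricellular target of mechanical signals, was at 155 and 332 CPM. Of 11 immediate early and heat shock genes 2 were called, beside 0.776% of all genes called higher. They were Egr1 at 126 and 255 CPM and the chaperone Hspa1a at 30.7 and 92.9 CPM. All 11 log2 ratios were above 0, while the median over all genes was 0.02. Genes of this kind can also be raised by tissue digestion, and its part here was not tested. Ccl2, a monocyte chemokine, was at 551 and 1241 CPM. It was the single gene called higher among 7 inflammatory genes, where Hp and Saa3 were called lower, beside 0.776% and 0.272% of all genes.

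Spp1, Bglap and Bglap2 were higher in the Smo cKO cells, the last pair through few cells. Of 6 osteoblast lineage genes at 50 CPM, 3 were called higher and 0 lower, beside 0.776% of all genes called higher, and Bglap2 reached the floor only in Smo cKO. Summed over the 14 listed genes, Spp1 the most abundant, the log2 ratio was 1.12 in the selected cells. It was 0.84 in the Sfrp4 Eln Col14a1 fibroblasts and 0.75 in the Tnc Inhba cells, so the list was higher in Smo cKO in all 3 classes. Spp1 (osteopontin, a phosphoprotein of bone and of activated macrophages) was at 302 and 948 CPM, and it remained higher without the 5 highest cells of each library, at 179 and 599.7 CPM. Bglap and Bglap2 were at 63.2 and 222 CPM and at 48.8 and 172 CPM, but 5 cells held 89.9% or more of their UMIs in each library, and 1 Smo cKO cell held 714 of the 994 Bglap UMIs. At a score threshold of 0.2 their log2 ratios were 0.50 and 0.70, under 2-fold. Without the 10 cells of each library with most bone and Col2a1 UMIs, 17 genes were called higher and 7 lower, and the log2 ratio was 1.45 for Spp1, 0.90 for Bglap and 2.18 for Bglap2, the last on 21 control and 63 Smo cKO UMIs. The Col2a1 log2 ratio of 3.27 turned to −5.55 without them, when 1 Smo cKO UMI was left against 71 in the control. The cells were dropped on these UMIs, and the 8 control cells with Col2a1 were all kept, so the turn supports no direction. S100a8 and S100a9, which mark neutrophils, were called too, and 1 Smo cKO cell held 449 of the 595 S100a8 UMIs. The S100a8 log2 ratio of 1.75 was 0.59 in cells thinned to 1000 UMIs and 0.41 from the mean of per-cell CPM. It was 2.38 at a score threshold of 0.2 and 3.25 with 200 to 2000 detected genes.

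Markers of other cell types were present in the selected cells at unequal levels, with hemoglobin highest. The 10 macrophage markers other than Spp1 summed to 232 CPM in control and 297 CPM in Smo cKO cells, with Lyz2 the highest at 64.4 and 117 CPM, and Ptprc was at 0 by the rule. Thinned Spp1 was found in 31.6% and 48.0% of Ptprc+ cells, above the 13.2% and 27.9% of the selected cells. The 4 hemoglobin genes summed to 2670.4 and 1630.3 CPM, and 5 cells held 68.4% and 51.9% of the Hbb-bs UMIs. The endothelial list summed to 7.14 and 11.2 CPM, the mural list to 44.0 and 31.9 CPM, the muscle list to 30.8 and 51.4 CPM, the epithelial and mesothelial list to 1.04 and 1.56 CPM, the Schwann and adipocyte list to 1.79 and 1.12 CPM, and the T, NK and B list to 14.1 and 5.58 CPM. The part of these RNAs in the Spp1 result was not tested.

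The Hh pathway could be read only at low levels. Smo (chromosome 6, 29735503 to 29761365) was at 20.4 CPM in control and 12.5 CPM in Smo cKO cells (log2 ratio −0.70, interval −1.18 to −0.25), and a UMI was found in 122 and 49 cells. With 200 to 2000 detected genes the direction turned, to a log2 ratio of 0.37. Its log2 ratio was −0.20 (interval −0.53 to 0.13) in the Sfrp4 Eln Col14a1 fibroblasts and −0.55 (interval −0.86 to −0.25) in the Tnc Inhba cells. UMIs do not show whether the floxed part of a transcript was present, so Smo does not check the genotype of a cell. Of 16 Hh pathway genes, 3 reached 20 CPM, Smo, Gas1 (a co-receptor, at 54.9 and 43.1 CPM) and Gli3 (the repressor of the pathway, at 30.2 and 29.5 CPM). The receptor Ptch1 was at 12.6 and 11.4 CPM, Gli1 had 0.149 and 0.447 CPM, and the ligand genes Shh and Dhh had 0 UMIs in the selected cells. The lineage reporter tdTomato was too shallow to divide the cells, with 5 UMIs in control and 7 in Smo cKO cells, in 0.907% and 1.83% of cells, against 0.191% and 0.541% of Ptprc+ cells. Cells that lost Smo and cells that kept it could therefore not be told apart.

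With no limit on detected genes, Cxcl12 differed between genotypes less in the selected cells than in the Sfrp4 Eln Col14a1 fibroblasts. Its log2 ratio was −0.35 (interval −0.55 to −0.16) in the selected cells and −1.38 (interval −1.51 to −1.26) in the fibroblasts, where it was at 232 and 89.0 CPM. In the Tnc Inhba cells it was at 95.7 and 113 CPM, higher in Smo cKO. With 200 to 2000 detected genes, the limits of the study's own filter, the log2 ratio in the selected cells was −1.95. The fibroblasts at these limits are not given here, so the order of the classes was not tested for them.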

How the data were processed

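Calluses were profiled by scRNAseq on the 10x Chromium platform, with 1 library of 3 pooled animals for each genotype. Per the study's methods and the submitters' processing notes, the authors aligned the reads to mm10 and counted UMIs with Cell Ranger 3.0.2, and they deposited the UMI counts of 31054 features as raw matrices, not normalized. Barcodes held at least 500 UMIs. No column was left without a sample.

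From these counts the cells were gated and scored as the report states. UMIs were summed by class and library and divided by the class total (CPM). Ratios have exact Poisson intervals, shares Clopper-Pearson intervals, and differences of shares Newcombe intervals, all at 95%. Cells of 1 library are not replicates, so no test was made. For shares of cells with a UMI, cells were thinned to 1000 UMIs. No doublet caller was run, and doublets were limited only by the markers required at 0. The code for ratios and 2-fold calls was tested on simulated sums, and the interval code was not. Coordinates are from GENCODE vM21 on GRCm38, the assembly of mm10. Where features share a symbol, the one with more UMIs kept it, and Snorc was not among the features.

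Genes were named by rule: the genes of the scores, Smo, tdTomato and Cxcl12, listed genes at 20 CPM or that define a list, and the 10 highest and lowest in each contrast at 50 CPM, leaving out sex-linked, mitochondrial and ribosomal genes among others. The text prints only some of the genes this rule names, 1 of them is not reported here, and all are kept in the counts. The members and gene lists were chosen with earlier results of these data known. Lists overlap, with Spp1 both an osteoblast and a macrophage gene. Alternatives changed the score threshold, depth, detected genes, collagen gate, scaling and CPM floor. Python 3.11.15, numpy 2.4.6, scipy 1.17.1 and pandas 2.3.3 were used.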

Additional observations from a re-analysis of the deposited data

How the results depend on the processing

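No paired analysis was possible because each genotype had 1 library, and no replicate could be left out. The share of selected cells among gated connective cells was 14.4% in Smo cKO at a score threshold of 0.2, and 11.5% in control and 10.7% in Smo cKO at 0.5. With 200 to 2000 detected genes, among which cells were scored and selected anew, it was 8.43% in control and 16.53% in Smo cKO, a difference of 8.10 percentage points (interval 4.87 to 11.5). Genes at least 2-fold higher and lower in Smo cKO numbered 46 and 22 at a floor of 20 CPM, 68 and 49 in cells thinned to 1000 UMIs, and 140 and 84 with 200 to 2000 detected genes, and 2 were lower at a floor of 100 CPM. Over the other gated cells, 73 were higher and 101 lower at 20 CPM, and 22 and 25 at 100 CPM. Leaving out shared barcodes, or the 10 cells of each library with most bone and Col2a1 UMIs, was chosen after seeing the data. The latter turned the Col2a1 ratio between genotypes to −5.55, Bglap2 over the other control cells to −2.12 and Col2a1 over the other Smo cKO cells to −1.28. Those cells were dropped on UMIs of these genes, so the turned values support no direction. The cause of these changes was not tested, except that a lower floor takes in more genes and thinning leaves fewer UMIs.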

Other observations

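The cells that scored as the selected cells did but held 2 or more Tnmd UMIs were left out of them, 110 in control and 109 in Smo cKO. Their tendon genes were high, with Tnmd at 663 and 1052.5 CPM, Thbs4 at 962 and 1142 CPM and Scx at 359 and 531 CPM. Fmod stood at 746 and 927 CPM, above its level in the selected cells, and Acan at 202 and 223 CPM, below it. Ibsp was at 5.82 and 12.4 CPM. Prg4 was at 570 and 328 CPM and Isg15 at 15.3 and 189 CPM, so both differed between libraries in the direction measured in the selected cells. The Tnmd filter chose these cells, so the tendon levels are a description.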
